A study of Mus musculus with 6 samples.

Results

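Amino acid transporters carry amino acids, and some related small molecules, across the plasma membrane and the membrane of the lysosome. The genes described here are all 64 symbols of the deposited TPM table, of 24054 genes in all, that begin with Slc1a, Slc3a, Slc6a, Slc7a, Slc36a, Slc38a or Slc43a and a digit. Of these, 30 reached 1 TPM (a level scaled to transcript length and to the library's total) in at least 3 of the 6 libraries and were tested, and 27 of the 30 did so in every library. The rule on symbols also takes in carriers of neurotransmitters, taurine, betaine and creatine among the Slc6a genes and a carrier of purine bases, Slc43a3. It further takes in 3 symbols ending in os, of genes that neighbour or overlap a transporter gene.

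RNA had been sequenced from c-Kit+ splenocytes of 6 mice, c-Kit being a receptor of blood progenitors against which magnetic beads were used. All mice carried an internal tandem duplication of the receptor gene Flt3 on both alleles (Flt3ITD/ITD). The AML (acute myeloid leukaemia) group of 3 mice also carried Dnmt3afl/-, which is a floxed and a deleted allele of the DNA methyltransferase gene Dnmt3a, with MxCre, a Cre recombinase under the interferon-responsive Mx promoter. The MPN (myeloproliferative neoplasm) group of 3 mice carried Dnmt3afl/fl, with no Cre in their titles. Ages, and whether or how Cre was induced, are not given in the labels. Genotype, Cre and disease therefore cannot be told apart, and the question put to the data is which transporter mRNAs separate the AML mice from the MPN mice. Each library is from a separate mouse by its title, and the labels call the mice moribund.

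By the spacing of low RPKM values, library depth relative to the mean of the 6 was 0.740 to 1.29 in AML and 0.937 to 1.04 in MPN, with AML replicate 3 the shallowest. Dnmt3a stood at 11.5 to 13.5 TPM in AML and 29.3 to 33.9 TPM in MPN, so its level went with the labels. Kit, the gene of the selection marker, stood at 99.2 to 130 TPM in AML and 145 to 152 TPM in MPN. Per the file headers, 1 library, MPN replicate 1, came from a different sequencing run. AML replicates 1 and 2 had Xist levels of 186 and 194 TPM, and the other 4 mice no more than 0.06 TPM, so females occurred in the AML group only. Markers of many cell types differed between the groups, against 10.0% of all tested genes lower and 20.1% higher. Lower in AML were 10 of 11 tested macrophage markers, 6 of 8 of monocytes, 7 of 9 of neutrophils, 5 of 10 of dendritic cells, 5 of 6 of B cells and 9 of 11 of T and NK cells. Higher were 6 of 8 of progenitors and 3 of 5 of mast cells and basophils, with Gata2 counted in both lists. Also higher were 3 of 8 of megakaryocytes and platelets and 2 of 3 of stroma and endothelium, with 1 of the latter lower. Of 14 erythroid markers 2 were lower, with a median log2 fold change of -1.85, and without AML replicate 1 the count was 10.

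Many amino acid carriers at the plasma membrane work as exchangers or are driven by sodium. Slc7a light chains such as LAT1 (Slc7a5) are joined to the heavy chain CD98 (Slc3a2), which brings them to the cell surface, and together they exchange leucine and other large neutral amino acids for glutamine. Amino acids inside the cell and the lysosome are sensed by the kinase complex mTORC1, and a lack of amino acids raises the transcription factor ATF4, whose targets include genes of several of these carriers.

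Of the 30 transporters tested, 6 were higher and 5 lower in AML than in MPN at a limma adjusted p under 0.05, and 19 did not pass. That is 36.7% called, against 30.1% of all 12223 genes tested, 20.1% higher and 10.0% lower. The median log2 fold change was 0.10 over the 30 transporters and 0.13 over all genes tested, so as a whole the family lay near the background. Groups did not overlap for 20 of the 30, 12 with AML higher and 8 with MPN higher, against 50.9% of all genes, 34.8% with AML higher and 16.1% with MPN higher. The number lower in AML was 3 without MPN replicate 1, the library of the other run, and 2 without MPN replicate 2. Over all genes, the number lower fell from 1224 to 757 and 718 in the same fits. In bulk RNA, fewer cells of a type and less RNA per cell cannot be told apart, which holds for every level below. With a term for sex in the fit, chosen after seeing the data, 4 of the 11 passed, namely Slc7a6, Slc7a8, Slc6a12 and Slc38a5.

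The genes that rose were the heavy chain gene Slc3a2, the light chain genes Slc7a5, Slc7a6 and Slc7a8, the cationic amino acid carrier gene Slc7a1, and Slc38a10. Those that fell were the light chain gene Slc7a7, the glutamine carrier gene Slc38a5, the lysosomal carrier gene Slc38a9, the neutral amino acid carrier gene Slc43a2, and Slc6a12, which encodes a betaine and GABA carrier. All 4 light chain genes tested were thus called, 3 upward and Slc7a7 downward.

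**Figure D1:**
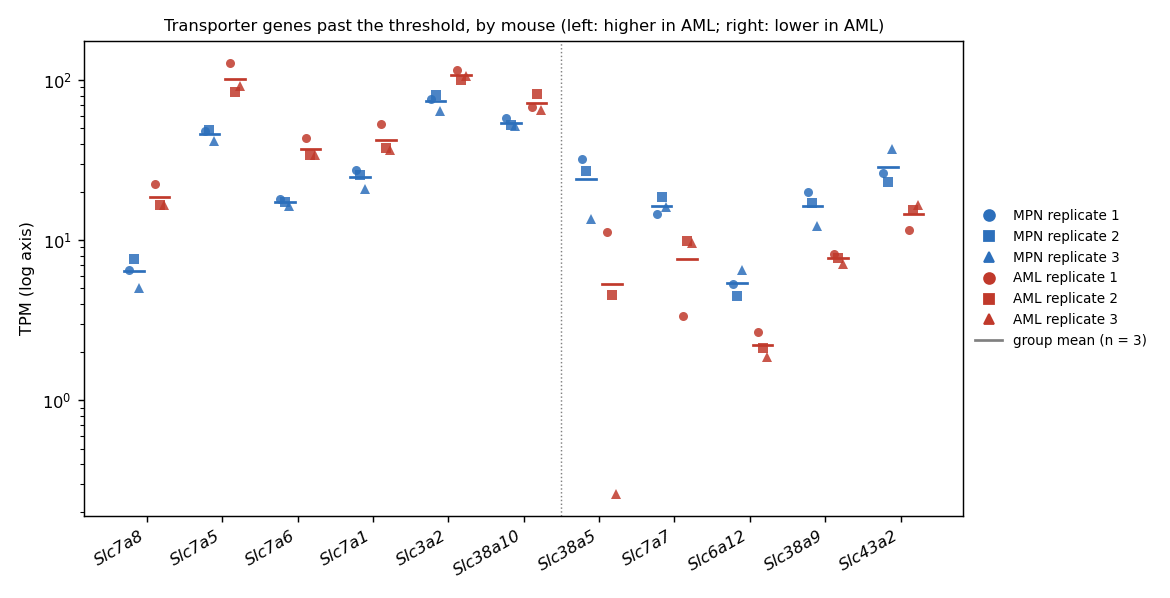
TPM on a log axis in each of the 6 mice for the 11 transporter genes past the threshold, blue for MPN and red for AML, with 1 marker shape per replicate and a line at the group mean (n = 3). For each of the 11 genes the 3 AML mice lie apart from the 3 MPN mice, and on the log axis the widest spread is that of Slc38a5 in AML, from 0.26 to 11.2 TPM.

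Upstream sequence of the light chain genes is shown because these genes moved in both directions and Slc7a7 and Slc7a8 are neighbours. Windows of the RefSeq promoter table on GRCm38.p6, from 250 bases before to 50 after a gene's start, were matched by symbol for 24 of the 30 tested transporters, and not for Slc1a5, Slc38a1, Slc43a3, Slc6a6, Slc7a4 and Slc7a5. They were searched on both strands for TGATGNAA, the letters of the amino acid response element bound by ATF4, and for CACGTG, the E-box. No transporter held both. Printed below are the bases before the start that lie in no annotated exon of the gene, 5′ to 3′, with motif matches in capitals.
Slc7a6, chr8:106168604-106168853, plus strand: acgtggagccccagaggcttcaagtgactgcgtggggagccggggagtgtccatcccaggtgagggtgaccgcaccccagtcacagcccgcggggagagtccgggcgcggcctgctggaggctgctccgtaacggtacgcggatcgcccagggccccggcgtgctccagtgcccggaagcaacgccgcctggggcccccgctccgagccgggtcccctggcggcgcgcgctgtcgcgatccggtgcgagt
Slc7a8, chr14:54781947-54782136, minus strand: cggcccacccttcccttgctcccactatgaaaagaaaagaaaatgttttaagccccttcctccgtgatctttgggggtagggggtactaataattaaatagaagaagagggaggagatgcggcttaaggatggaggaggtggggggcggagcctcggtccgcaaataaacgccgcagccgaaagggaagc
Slc7a7, chr14:54417945-54418194, minus strand: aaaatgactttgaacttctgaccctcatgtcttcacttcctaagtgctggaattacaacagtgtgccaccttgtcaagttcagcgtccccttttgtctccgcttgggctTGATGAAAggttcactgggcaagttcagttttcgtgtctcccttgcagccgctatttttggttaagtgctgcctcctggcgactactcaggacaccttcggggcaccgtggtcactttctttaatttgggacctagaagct

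The Slc7a7 run, from a gene that fell, holds TGATGAAA beginning 141 bases before the RefSeq start, and a further match, TGATGCAA, begins at its last base. The Slc7a6 and Slc7a8 windows, from genes that rose, hold neither motif. Of the 24 transporters with a window, 2 held TGATGNAA, namely Slc7a7 and Slc1a4, a gene that did not pass. The E-box was in 5, namely Slc38a5, which fell, and Slc36a1, Slc38a7, Slc43a1 and Slc7a14, which did not pass. Over all 27025 genes of the table, 4.51% held TGATGNAA in a window and 8.09% held CACGTG, and over its 32851 windows the shares were 3.97% and 7.15%. None of the 5 genes that rose and had a window held either motif. These are matches of letters in a short window, and the data do not show what binds there.

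By place, Slc7a7 lies on chromosome 14 from 54369442 to 54417780 and Slc7a8 on the same minus strand from 54722209 to 54781946 (GENCODE M21, GRCm38). They are 304.4 kb apart with 16 protein-coding genes between them. Slc6a13 and Slc6a12 lie in tandem on the plus strand of chromosome 6, 5.3 kb apart, and of these only Slc6a12 was called. Slc7a6 on chromosome 8, from 106168857 to 106198706, ends 2.0 kb from Slc7a6os, which encodes a protein that is no carrier and did not pass. The Slc7a5 gene spans 121881150 to 121907694 of chromosome 8, and the Slc3a2 gene spans 8706882 to 8723369 of chromosome 19, both on the minus strand. The annotated gene Gm20388 covers Slc7a5 on the other strand. The libraries are stranded per the labels' protocols, but the sources used here do not say whether strand entered the counting.

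The heavy chain gene Slc3a2 had TPM of 115, 101 and 106 in the AML mice and of 75.6, 80.9 and 63.9 in the MPN mice, here and below in the order of replicates 1 to 3. Every AML mouse was above every MPN mouse. The rise was 0.54 ± 0.12 (SE) on the log2(TPM + 1) scale, a ratio of means of 1.46, with a limma adjusted p of 0.0159. Its relative Slc3a1, which pairs with light chains of kidney and gut, reached no more than 0.22 TPM in any mouse. By the authors' RPKM values Slc3a1 stood higher, at 0.511 to 0.918 RPKM, and the cause of that difference was not tested.

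Slc7a5, the LAT1 light chain for leucine and other large neutral amino acids, stood at 128, 84.1 and 91.4 TPM in AML and at 47.8, 48.8 and 41.9 TPM in MPN. The lowest AML mouse was well above the highest MPN mouse. Means were 101 ± 23.4 and 46.1 ± 3.70 TPM (SD, n = 3 each), with a log2 fold change of 1.09 ± 0.17 (SE) and a limma adjusted p of 0.00400. Slc7a8, the LAT2 light chain with a broader range of neutral amino acids, had TPM of 22.4, 16.7 and 16.7 in AML and 6.53, 7.67 and 5.06 in MPN. This was the largest rise among the tested transporters, at 1.40 ± 0.20 (SE) on the log2 scale and 2.89-fold between the means (limma adjusted p = 0.00278). AML replicate 1 was the highest mouse for both genes.

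Slc7a6, the y+LAT2 light chain that exchanges cationic for neutral amino acids, stood at 43.4, 34.0 and 34.2 TPM in AML and at 18.2, 17.2 and 16.3 TPM in MPN. The groups lay far apart against their spread, with means of 37.2 ± 5.38 and 17.2 ± 0.935 TPM. Its log2 fold change was 1.06 ± 0.14 (SE) and its limma adjusted p of 0.00228 was the smallest among the 30. Slc7a7, the y+LAT1 light chain of the same transport system, which is known from macrophages, kidney and gut, went the other way. It stood at 3.34, 9.95 and 9.57 TPM in AML and at 14.5, 18.5 and 16.1 TPM in MPN. AML replicate 1 was the lowest mouse, and the groups did not overlap.

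The log2 fold change of Slc7a7 was -1.12 ± 0.35 (SE) with a limma adjusted p of 0.0493. The call ended without MPN replicate 1, 2 or 3 (limma adjusted p of 0.0915, 0.140 and 0.124). Markers of macrophages, summed over the 12 genes of the list, moved with it, at 41.7 to 58.5 TPM in AML and 178 to 309 TPM in MPN. C1qa was at 0 in AML replicates 2 and 3, C1qb and C1qc were at 0 in AML replicate 3, and Mertk was at 0 in AML replicates 2 and 3. In AML replicate 1, where Slc7a7 was lowest, these genes were highest among the AML mice, at 1.12, 0.94, 1.47 and 0.10 TPM. Axl, Cd5l, Spic and Marco were also highest there. Others of the list were not, with Vcam1, Slc40a1 and Emr1 highest in AML replicate 2 and Hmox1 in AML replicate 3. Emr1 stood at 5.4, 17.95 and 17.23 TPM in AML, lowest in replicate 1 like Slc7a7. The macrophage sum was 41.7, 58.5 and 42.9 TPM in AML replicates 1 to 3. Monocyte markers summed to 675, 1692 and 1030 TPM in AML and 1833 to 2027 TPM in MPN, with 6 of 8 lower in AML and 1 higher. Dendritic cell markers summed to 369, 1183 and 1793 TPM in AML and 1978 to 2525 TPM in MPN, and neutrophil markers to 6885, 20615 and 14517 TPM in AML and 30426 to 48248 TPM in MPN. Like Slc7a7, these 3 sums were lowest in AML replicate 1. Their part in the level of Slc7a7 was not tested.

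Slc7a11, the cystine and glutamate exchanger, was low in the TPM table, at 0.27 to 0.67 TPM, and was not tested there. The authors' RPKM table put it at 0.912 to 1.10 RPKM, within the range of Slc7a4 in that table, and there it did not pass (log2 fold change -0.01, limma adjusted p = 0.928). The tables differ on this gene, and the cause was not tested. Slc7a10 stayed at or under 0.26 TPM. Slc7a9, Slc7a12, Slc7a13 and Slc7a15 were listed at 0 in all mice. Summed over the light chains, the level was 145 to 197 TPM in AML and 80.1 to 92.6 TPM in MPN. Per transcript of Slc3a2 the sum was 1.72, 1.44 and 1.43 in AML replicates 1 to 3 and 1.16, 1.14 and 1.25 in MPN replicates 1 to 3. Light chain mRNA thus stood higher against heavy chain mRNA in each AML mouse than in any MPN mouse. Slc7a7 gave 1.69% to 6.86% of the light chain sum in AML and 16.5% to 20.1% in MPN. Slc7a8 gave 11.0% to 11.5% in AML and 6.32% to 8.28% in MPN, while Slc7a5 gave most of it in every mouse, from 52.3% to 64.8%. These ratios describe the mice and were not tested.

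**Figure D2:**
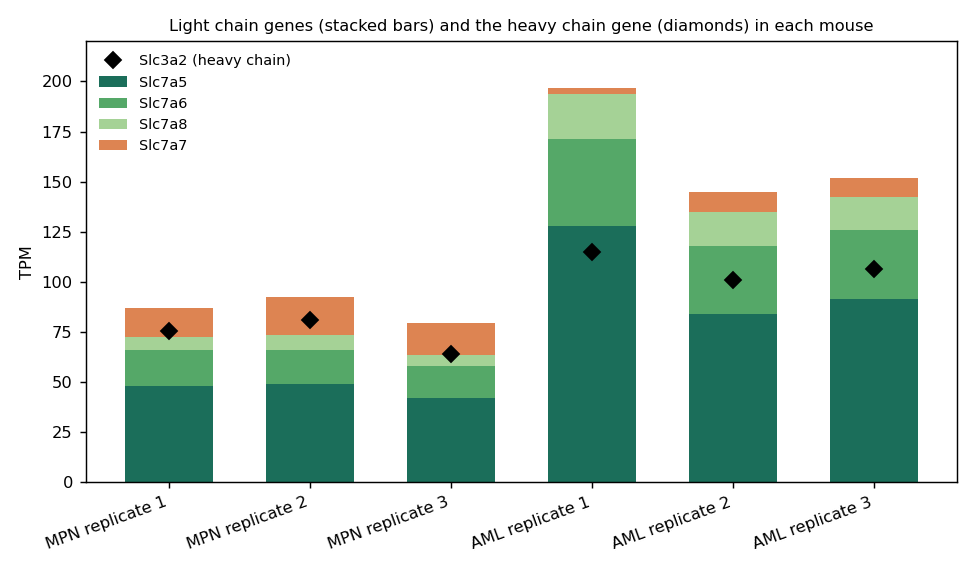
TPM of the 4 tested light chain genes as stacked bars from 0, and of the heavy chain gene Slc3a2 as black diamonds, for each mouse. The bars of the AML mice are taller, and the orange segment of Slc7a7 shrinks from 14.5 to 18.5 TPM in MPN to 3.34 to 9.95 TPM in AML.

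Among the cationic amino acid carriers, Slc7a1 (CAT1), the widespread importer of arginine and lysine, stood at 53.3, 37.5 and 36.6 TPM in AML and at 27.3, 25.7 and 21.0 TPM in MPN. The groups did not overlap. Its rise was 0.75 ± 0.18 (SE) on the log2 scale (limma adjusted p = 0.0209), and the call ended without MPN replicate 2 (0.0598) or 3 (0.0707). Slc7a4 stood at 5.17, 5.98 and 3.04 TPM in AML and 1.55 to 2.81 TPM in MPN and did not pass (limma adjusted p = 0.0558). Without AML replicate 3 it did, with a log2 fold change of 1.03 and a limma adjusted p of 0.0192. Its gene overlaps P2rx6 on the other strand by 5783 bases. Slc7a14, a lysosomal relative, did not pass at 4.25 ± 0.899 against 2.83 ± 0.672 TPM. Slc7a2 and Slc7a3 stayed at or under 0.16 TPM.

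Slc1a5 (ASCT2), the sodium-dependent exchanger of glutamine and small neutral amino acids, had the highest mean level of all 64 genes. It stood at 171, 159 and 194 TPM in AML and at 145, 140 and 107 TPM in MPN. The groups did not overlap, yet the log2 fold change of 0.42 ± 0.15 (SE) did not pass (limma adjusted p = 0.0630). In the RPKM table it did, at 0.41 with a limma adjusted p of 0.0423. Slc1a4 (ASCT1), for alanine, serine and cysteine, was low at 2.31 to 3.68 TPM in AML and 1.34 to 2.29 TPM in MPN and did not pass (limma adjusted p = 0.0922). The glutamate and aspartate carriers of neurons and glia, Slc1a1, Slc1a2, Slc1a3, Slc1a6 and Slc1a7, reached at most 0.57 TPM, in Slc1a3.

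Among the Slc38a genes, the system A carriers of small neutral amino acids were abundant and did not pass. Slc38a1 averaged 61.2 ± 3.91 TPM in the AML mice against 54.2 ± 1.67 TPM in the MPN mice, with a 95% interval of the log2 fold change from -0.07 to 0.42. Slc38a2, a gene known to respond to a lack of amino acids, had its highest and lowest mice in the same group. It stood at 163, 101 and 96.4 TPM in AML and 126, 113 and 144 TPM in MPN, and its interval ran from -0.61 to 0.37. Slc38a10 stood at 68.0, 81.8 and 65.3 TPM in AML and at 57.7, 52.4 and 51.5 TPM in MPN. Its rise of 0.40 ± 0.12 (SE) on the log2 scale was the smallest called (limma adjusted p = 0.0466). Leaving out AML replicate 1 or 2, or MPN replicate 1, 2 or 3, ended that call (limma adjusted p of 0.0542 to 0.147). So did median scaling (0.0797), quantile normalization (0.0934), no filter (0.0510), a filter at 5 TPM (0.0502) and no trend (0.0675), so that it held in 5 of 15 planned settings.

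Slc38a9, a lysosomal carrier that signals arginine to mTORC1, stood at 8.21, 7.77 and 7.11 TPM in AML and at 19.9, 17.1 and 12.2 TPM in MPN. The 3 AML mice lay close together under all MPN mice, at 46.9% of the MPN mean. The log2 fold change was -0.98 ± 0.20 (SE) with a limma adjusted p of 0.0108, and without MPN replicate 2 the limma adjusted p was 0.0510. An antisense gene, Gm47827, overlaps it by 16558 bases. Slc38a7, which exports glutamine from lysosomes, did not pass at 10.4 ± 1.40 against 10.2 ± 0.786 TPM, with an interval of the log2 fold change from -0.35 to 0.40. Slc38a6 did not pass at 3.25 ± 0.945 against 4.66 ± 0.552 TPM.

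Slc38a5, a system N carrier of glutamine, serine and glycine that lies on the X chromosome from 8271133 to 8280179, had the widest range among the AML mice on the log2(TPM + 1) scale. The AML mice had 11.2, 4.52 and 0.26 TPM and the MPN mice 32.1, 26.9 and 13.6 TPM. AML replicate 1 came close to MPN replicate 3, and AML replicate 3 was far under the other mice. The log2 fold change of -2.44 ± 0.76 (SE) passed with a limma adjusted p of 0.0478. The log2 fold change was -1.54 without AML replicate 3 and -3.17 without AML replicate 1, and passed in both. It did not pass without AML replicate 2 (limma adjusted p = 0.0841) or without MPN replicate 1, 2 or 3 (0.126, 0.122 and 0.0845).

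Erythroid markers moved with Slc38a5: their sum over 14 genes was 636, 229 and 82.9 TPM in the AML mice and 886, 767 and 404 TPM in the MPN mice, with Trim10 at 0 in AML replicate 3. Slc6a9, the glycine carrier GlyT1 that also serves haem synthesis in red cell precursors, ran in the same order of mice within each group. It stood at 7.14, 1.47 and 0.96 TPM in AML and at 3.76, 2.65 and 1.60 TPM in MPN, and the groups overlapped (limma adjusted p = 0.934). Its 95% interval of -1.29 to 1.16 is wide, so these mice do not settle the sign of a difference within it. Slc43a1 likewise stood at 14.4, 12.9 and 7.08 TPM in AML and at 25.7, 22.8 and 12.3 TPM in MPN. Red blood cells had been lysed before the c-Kit selection, per the labels, and the part of erythroid cells in these levels was not tested.

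**Figure D3:**
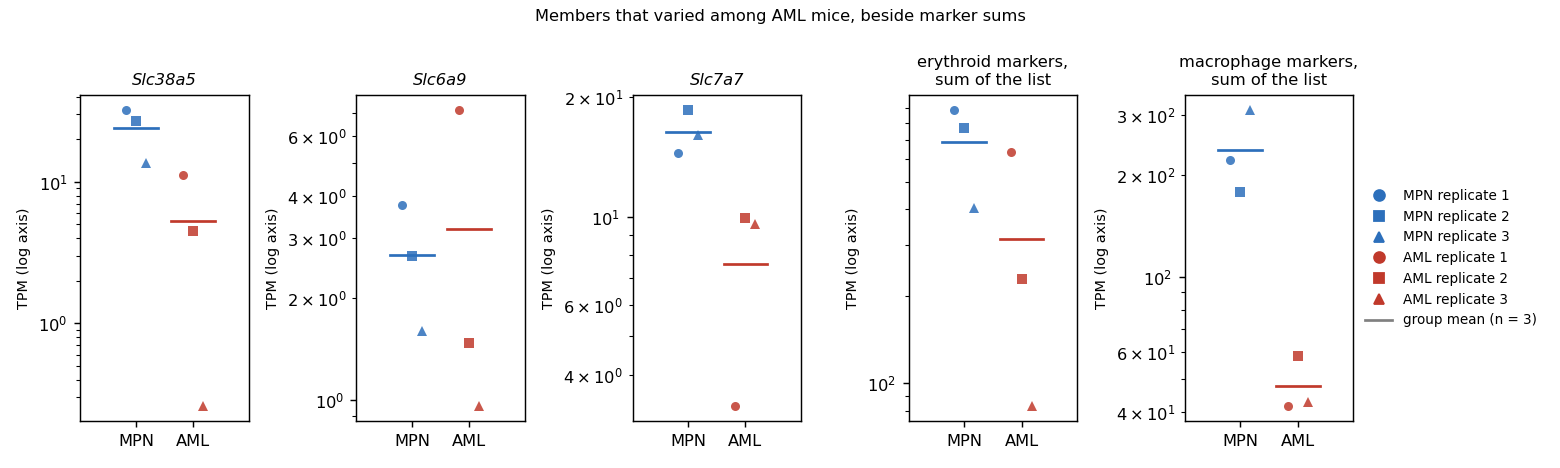
TPM on log axes of Slc38a5, Slc6a9 and Slc7a7, and the summed TPM of the erythroid and macrophage marker lists, with 1 marker shape per replicate and a line at the group mean (n = 3). Within AML, Slc38a5, Slc6a9 and the erythroid sum are each highest in replicate 1 and lowest in replicate 3, while Slc7a7 is lowest in AML replicate 1.

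Slc43a genes encode facilitated carriers that need no sodium. Slc43a2 (LAT4), for leucine, phenylalanine and methionine, stood at 11.7, 15.5 and 16.5 TPM in AML and at 26.4, 23.1 and 37.0 TPM in MPN. All AML mice were below all MPN mice. Its log2 fold change was -0.93 ± 0.21 (SE), with a limma adjusted p of 0.0169. Slc43a1 (LAT3), with values above, did not pass (limma adjusted p = 0.123), and Slc43a3, a carrier of purine nucleobases, had means of 60.8 ± 12.5 against 56.4 ± 14.8 TPM. Of the leucine carriers, Slc7a5 and Slc7a8 therefore rose while Slc43a2 fell, and TPM of Slc7a5 per TPM of Slc43a1 was 6.50 to 12.9 in AML and 1.86 to 3.41 in MPN.

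None of the 3 proton-coupled Slc36a genes tested passed, the smallest unadjusted limma p being 0.0564, for Slc36a4. Slc36a1 (PAT1), which exports small amino acids from lysosomes, stood at 16.5 to 26.5 TPM in AML and 16.2 to 24.2 TPM in MPN, and the groups overlapped. Slc36a4 stood at 10.3 ± 0.880 against 7.86 ± 0.841 TPM (limma adjusted p = 0.125), and Slc36a3 at 0.24 to 1.96 TPM in AML and 1.28 to 1.35 TPM in MPN. Slc36a2 was the untested gene with the highest value, 1.35 TPM in AML replicate 2, and the other 33 untested genes stayed under 1 TPM in every library. Among these, 9 were listed at 0 in all 6 libraries. The os symbols tested, Slc36a1os and Slc7a6os, did not pass, the former at 3.52 ± 0.153 against 5.30 ± 1.02 TPM (limma adjusted p = 0.0883). Without MPN replicate 3, Slc36a1os passed at -0.60 with a limma adjusted p of 0.0484.

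Among the Slc6a genes, Slc6a12, the betaine and GABA carrier BGT1, stood at 2.67, 2.13 and 1.87 TPM in AML and at 5.31, 4.51 and 6.47 TPM in MPN. The groups were well apart at this low level. It fell by 0.99 ± 0.19 (SE) on the log2 scale, with a limma adjusted p of 0.00860. Slc6a13, its neighbour, a carrier of GABA and taurine, stood at 8.13, 5.32 and 4.45 TPM in AML and 4.11 to 4.65 TPM in MPN, and did not pass (limma adjusted p = 0.272). Slc6a6, the taurine carrier, was among the most abundant members, at 152, 70.3 and 107 TPM in AML and 75.7 to 83.5 TPM in MPN. AML replicate 2 lay under all MPN mice, and without it Slc6a6 passed with a log2 fold change of 0.66 (limma adjusted p = 0.0382), against 0.38 and 0.287 with all mice. Slc6a20a, a proline carrier, did not pass at 1.70 ± 0.669 against 3.18 ± 0.864 TPM (limma adjusted p = 0.0884); without AML replicate 1 it passed at -0.82 (0.0423). The monoamine carriers Slc6a2, Slc6a3 and Slc6a4 and the creatine carrier Slc6a8 reached at most 0.47 TPM.

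**Figure D4:**
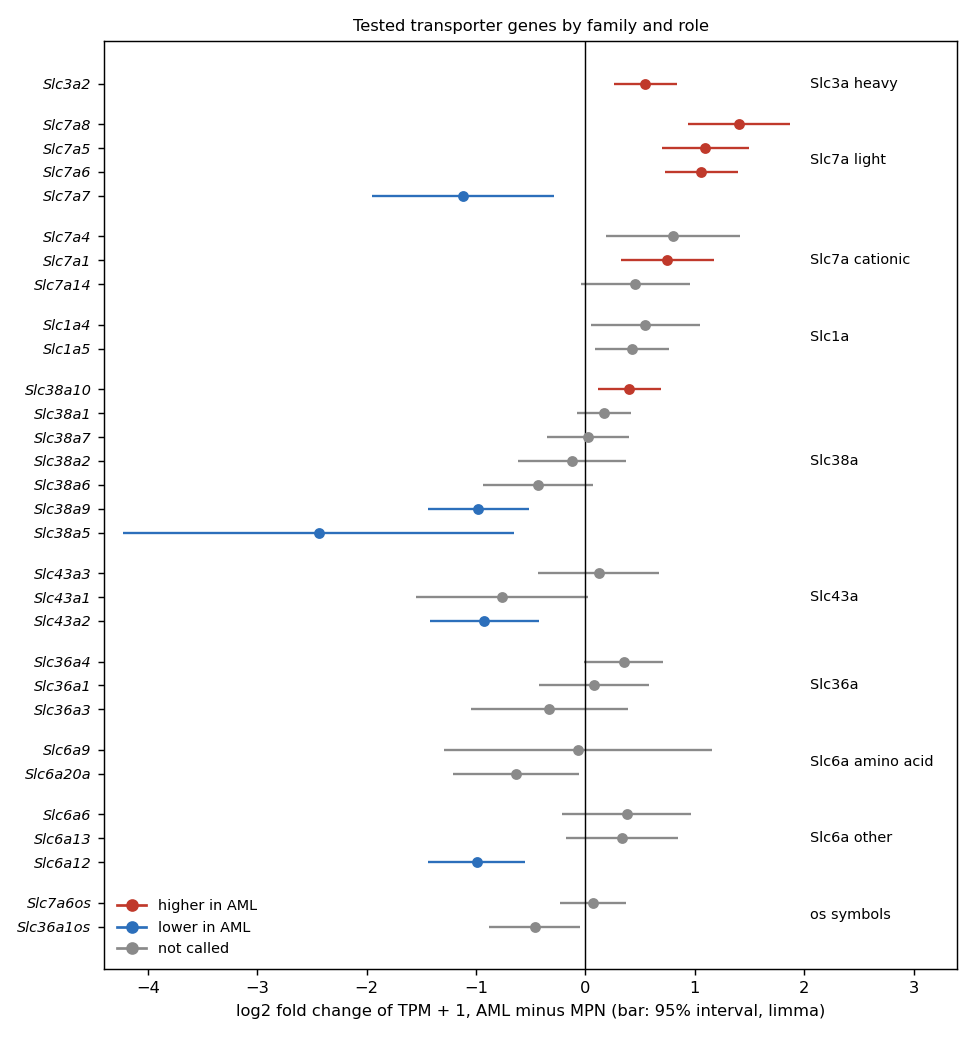
Log2 fold change of TPM + 1, AML minus MPN, for each of the 30 tested transporters, grouped by family, with bars for the 95% interval of the limma fit, which is not adjusted over genes. Red marks 6 genes higher in AML, blue 5 lower, and grey 19 that did not pass. The interval of Slc38a5 is the widest.

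Summed over all 64 genes, transporter mRNA came to 1216, 986 and 992 TPM in the AML mice and to 952, 897 and 809 TPM in the MPN mice. The 5 genes with the highest means over all 6 mice, Slc1a5, Slc38a2, Slc6a6, Slc3a2 and Slc7a5, gave 52.2% to 60.0% of it in AML and 50.1% to 53.6% in MPN. In MPN alone Slc7a5, at a mean of 46.1 TPM, ranked below Slc43a3, Slc38a1 and Slc38a10. In each library, 28 to 30 of the 64 genes reached 1 TPM.

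The 4 lists of other genes of amino acid supply were read in the same fit. In the list of the amino acid response, 10 of 24 tested genes were higher and 3 lower in AML, with a median log2 fold change of 0.18, against 20.1% higher and 10.0% lower and a median of 0.13 over all genes. Phgdh, which opens serine synthesis from glycolysis, stood at 445, 334 and 326 TPM in AML and at 86.7, 83.3 and 76.2 TPM in MPN, without overlap. It rose by 2.14 ± 0.14 (SE) on the log2 scale (limma adjusted p = 0.000190). Psat1 and Shmt2, of serine synthesis and the step from serine to glycine, rose by 1.13 and 1.06 on the log2 scale. Atf4 itself, named after its values were seen, stood at 285, 226 and 242 TPM in AML and at 197, 200 and 163 TPM in MPN, a rise of 0.43 with a limma adjusted p of 0.0470. Ddit3 and Mthfd2, also targets of ATF4 and named after their values were seen, fell by 0.49 and 0.65. The count of higher genes in this list fell to 3 without MPN replicate 1, 2 or 3, and to 6 without AML replicate 2. Calls also fell over all 12223 genes, from 2454 higher to 1520, 1291 and 1374 without MPN replicate 1, 2 or 3. Without AML replicate 2 that count was 1923.

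Of the sensing and mTORC1 genes, 4 of 39 tested (10.3%) were higher and 2 lower, against 20.1% and 10.0% of all genes tested. Their median of 0.07 became -0.01 under median scaling, which also moved the median of all genes from 0.13 to 0.05. Without MPN replicate 1, 2 or 3 at most 1 was higher, and 2 were lower each time. Over all 12223 genes, 1291 to 1520 were higher and 718 to 906 lower in those fits, against 2454 and 1224 with all mice. With array weights 11 were higher and 3 lower, while over all 12223 genes 3305 were higher and 2131 lower. Gatsl2, also named Castor2 and a homologue of an arginine sensor, fell by 1.03 on the log2 scale, and Sesn3, a sestrin that restrains mTORC1, stood at 7.86 to 10.1 TPM in AML and 15.5 to 16.2 TPM in MPN. Eif4ebp1, an mTORC1 substrate that represses translation, rose by 0.47 (limma adjusted p = 0.0175). In the list of amino acid use, 3 of 22 (13.6%) were higher and 2 lower, against the same shares over all genes. Il4i1, a secreted oxidase of aromatic amino acids made by myeloid and B cells, stood at 1.55, 3.83 and 2.94 TPM in AML and at 61.6, 57.9 and 90.7 TPM in MPN. Summed B cell markers were also lower in AML, at 27.4 to 36.8 TPM against 65.5 to 82.3 TPM in MPN. Most of the AML sum was Cd79b, which did not pass, at 26.05 to 33.9 TPM in AML and 26.9 to 38.2 TPM in MPN. The other 5 tested were lower, such as Cd79a at 0.38 to 1.23 TPM in AML and 18.0 to 19.8 TPM in MPN. The macrophage and dendritic cell sums above were lower too. The dendritic cell sum ranged from 369 to 1793 TPM among the AML mice, with Il4i1 low in each. The part of these cells in the level of Il4i1 was not tested. Prodh, which opens proline breakdown, and Bckdha, of branched-chain amino acid breakdown, rose by 1.48 and 0.73.

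Among carriers of other families, 4 of 15 tested (26.7%) were higher and 4 lower, against 20.1% and 10.0% of all genes tested. Slc15a3, a lysosomal carrier of histidine and small peptides, stood at 0.63, 1.71 and 1.45 TPM in AML and at 14.3, 18.2 and 22.5 TPM in MPN. It fell by 3.10 ± 0.25 (SE) on the log2 scale (limma adjusted p = 0.000339). The other 3 that fell, named after their values were seen, were Slc15a4 (-1.08), Pqlc2 (-1.13) and Ctns (-0.66), which likewise encode carriers of the lysosome. Slc17a8, a vesicular glutamate carrier, stood at 40.4, 8.24 and 9.88 TPM in AML and at 0.34 to 0.46 TPM in MPN. The mitochondrial aspartate and glutamate carriers Slc25a12 and Slc25a13 rose by 0.74 and 0.55, the latter named after its value was seen, as was the mitochondrial ornithine carrier Slc25a15, at 1.06.

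**Figure D5:**
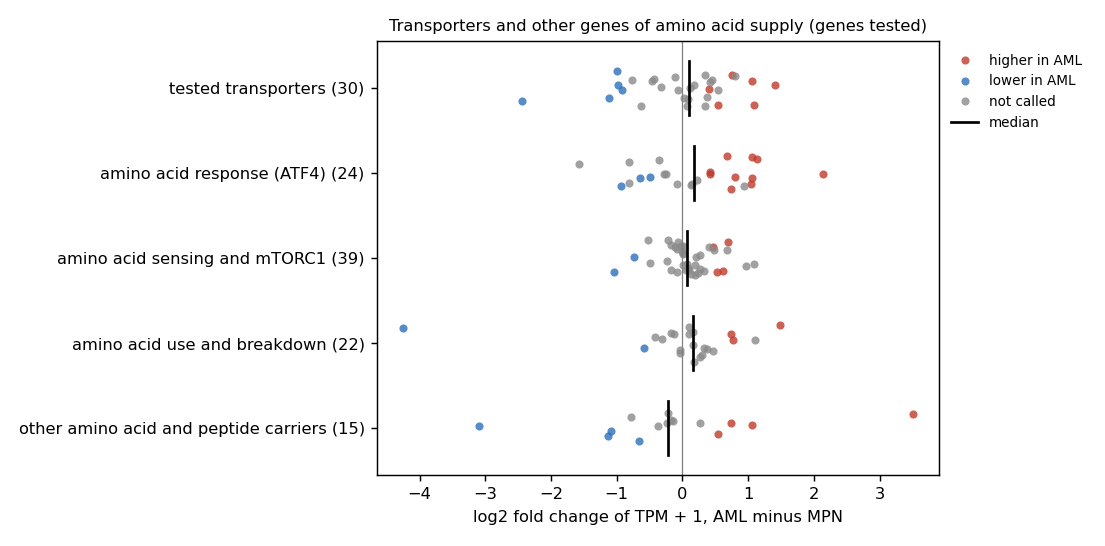
Log2 fold change of TPM + 1, AML minus MPN, for the tested transporters and the tested genes of 4 lists, 1 point per gene, red for higher in AML, blue for lower and grey for not called, with a black line at each median. Points are shifted up or down at random for visibility, and the medians run from -0.21 to 0.18.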

How the data were processed

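Poly-A-selected RNA of 6 libraries, 1 per mouse, was sequenced per the labels' protocols. The TPM table, by gene symbol, was deposited by the authors as gene-level RSEM output per the file headers. The RPKM table deposited by the authors goes by Ensembl identifier, and its low values are those of counts plus 1 read. The submitters' processing notes name TopHat2, RSEM, Bowtie2, mm9 and mm10 without saying what each was used for. Relative depth came from the steps of the RPKM values, scaled to a mean of 1. TPM keeps no depth.

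AML (3 mice) was compared with MPN (3 mice) on log2(TPM + 1), two-sided, with limma 3.58.1 (R 4.3.3), using the trend option and no covariates, for genes at 1 TPM or more in 3 or more libraries. P-values were adjusted by Benjamini-Hochberg over 12223 genes, with a threshold of 0.05. A pseudocount of 1 understates changes of low genes. Replicate numbers follow accession order, and p-values measure the spread between mice. All tested transporters and the 3 smallest p of each list were named by rule. Members, lists and tests were chosen with earlier results of these data known. The fit was tested on simulated data. Alternatives were other pseudocounts, filters, scalings, weights and no trend, the RPKM table, leaving out each mouse and, added after seeing the data, a term for sex.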

Additional observations from a re-analysis of the deposited data

How the results depend on the processing

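Of the 11 called transporters, 11 kept their sign in all planned settings that gave a value, and 6 kept their call in each of them (Slc3a2, Slc43a2, Slc6a12, Slc7a5, Slc7a6 and Slc7a8, of which Slc6a12 was not tested at 5 TPM). Of the 19 not called, 7 passed in at least 1 setting. The number of transporters lower in AML, 5, became 3 with a pseudocount of 0.1, 2 with a filter at 5 TPM, 3 without the trend and 9 with array weights. At 5 TPM, 20 transporters and 10285 genes were tested, in the others 30 and 12223. Over all genes, the number lower, 1224, became 1177, 917, 1186 and 2131 in the same order. Leaving out each mouse in turn gave 2 to 6 lower, 4 to 7 higher, and 2009 to 3705 genes called in all, against 3678. With a term for sex, where AML replicate 3 alone stands against the MPN mice under an assumed common spread, 1208 genes, 2 higher transporters (Slc7a6 and Slc7a8) and 2 lower ones (Slc38a5 and Slc6a12) passed, and Slc7a5 had a log2 fold change of 0.97 with a limma adjusted p of 0.0534. That fit uses fewer mice per estimate. The Slc38a5 call also ended with a pseudocount of 0.1 (limma adjusted p = 0.0794), no filter (0.0882), a filter at 5 TPM (0.0517) and no trend (0.0556), and that of Slc7a7 under the same settings (0.0570, 0.0882, 0.0523 and 0.0538) and quantile normalization (0.0501). The cause was not tested. No paired analysis was made because each library is from a separate mouse and the labels give no pairing. With 3 mice per group, exact permutation of a single gene cannot go below a p of 0.1.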
